A study of Marchantia polymorpha subsp. ruderalis with 24 samples.

Results

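MpHA2 (Mp3g21600), MpHA5 (Mp3g12380) and MpHA13 (Mp3g07690) encode plasma membrane proton pumps of the liverwort Marchantia polymorpha. They were found by identifier in a table of 20574 genes, which holds 18 genes named MpHA, and all 3 passed the filter on low counts together with 14 of the other 15. The 3 genes were selected on their levels in this same time course, so their own values are given below as a description with no p-value. Where counts of these 3 genes past a threshold are given beside the share of all tested genes, nothing is read from them. The plants were wild-type M. polymorpha subsp. ruderalis of the male accession Takaragaike (Tak) -1, raised from gemmae in 12 h light and 12 h dark at 20 °C and then moved to constant light. The tissue, young thallus by its label although the extraction protocol speaks of frozen gemmae, was taken at 8 times, 6 h apart, the first 24 h and the last 66 h after that move, with 3 libraries at each time. All groups share the genotype and the move, and no plants kept in light-dark cycles are among the samples, so time in constant light and plant age cannot be told apart. Whether replicates came from separate cultures is not stated in the labels, so the p-values rest on a spread between libraries that could be technical. Names come from the RefSeq gene table of assembly MpTak2_v7.1, matched on the digits of the identifiers, which carry the suffix of another annotation version.

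Plasma membrane proton pumps are P-type ATPases that use ATP to move protons out of the cell. The gradient they build drives the uptake of nitrate, phosphate, sugars and potassium, and it acidifies the cell wall, which loosens the wall for growth. In flowering plants the pumps are switched on when a threonine near their C-terminus is phosphorylated and a 14-3-3 protein binds there, and phototropins and auxin act through this step. This control acts on the protein and is not measured here, where messenger RNA was counted.

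The libraries held 14929708 to 59194999 counts, and at this depth the 3 genes had between 295 counts (MpHA5, replicate 2 of 66 h) and 10590 counts (MpHA2, replicate 3 of 24 h) per library. Genes of photosynthetic tissue were present throughout, with 137 to 343 CPM (a count scaled to the TMM-adjusted size of its library) of MpRBCS, and the gemma cup genes MpKAR and MpGCAM1 ranged from 45.3 to 73.9 CPM and from 1.76 to 26.0 CPM. Of 3 genes listed for sexual organs and sperm, MpRKD was at 149 to 196 CPM, MpDUO1 at 0.104 to 0.889 CPM, and the protamine gene MpPRM at 0 in 19 of the 24 libraries. Replicate 3 of 24 h, of 30 h and of 66 h held 7.22%, 4.44% and 4.27% of their counts in a single gene, MpVg01240. Without these 3 libraries the day differences given below were −0.55, −1.07 and −0.83 on the log2 scale for MpHA2, MpHA5 and MpHA13.

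All 3 proton pump transcripts fell over the 2 days. Each was highest at 24 h and lowest at 66 h, with time means 2.53 times (MpHA2), 3.29 times (MpHA5) and 2.41 times (MpHA13) as high at the first time as at the last. The lowest of the 3 libraries at 24 h lay above the highest at 66 h for each gene, as it did for 21.9% of the 14414 tested genes. Because whole tissue was sampled, fewer cells that express a gene and less RNA per cell cannot be told apart.

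MpHA2 dropped early and again at the end. Its libraries held 237, 231 and 212 CPM at 24 h, 217, 178 and 179.6 CPM at 30 h, and 126, 147 and 130.0 CPM at 36 h. They held 193, 127 and 126 CPM at 42 h and 124, 115 and 155 CPM at 48 h. All 3 libraries of 36 h thus lay below all of 24 h and of 30 h, while the libraries of 36, 42 and 48 h overlapped. MpHA2 then had 135, 122 and 156 CPM at 54 h, 106, 103 and 124 CPM at 60 h, and 102, 98.4 and 68.2 CPM at 66 h. The times 48 and 54 h overlapped, whereas all 3 libraries of 66 h lay below those of 60 h, the closest by less than 1 CPM. Replicate 3 of 66 h was the lowest of all 24 libraries. Replicate 1 of 42 h stood above the other two libraries of its time.

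MpHA5 fell less than MpHA2 up to 36 h and then dropped further. Its libraries held 76.7, 70.3 and 69.5 CPM at 24 h, 66.1, 68.1 and 56.1 CPM at 30 h, and 73.8, 61.5 and 50.4 CPM at 36 h. All 3 libraries of 30 h lay below all of 24 h, while those of 36 h overlapped both times. At 42 h the libraries held 40.2, 37.6 and 46.6 CPM, below every library of the 3 earlier times. MpHA5 then had 32.0, 31.1 and 40.6 CPM at 48 h and 33.1, 28.7 and 56.9 CPM at 54 h. Replicate 3 of 54 h was far above its 2 companions and within the range of 30 and 36 h. At 60 h the libraries held 24.0, 27.8 and 22.02 CPM and at 66 h 18.2, 20.3 and 27.4 CPM of MpHA5. Both times lay below every library up to 54 h, while 60 and 66 h overlapped.

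MpHA13 varied most between libraries of the same time, with a spread of 0.30 (SD of log2 CPM within times) against 0.27 for MpHA5 and 0.22 for MpHA2. It had 109, 111 and 86.8 CPM at 24 h, 113, 96.2 and 70.4 CPM at 30 h, and 119.9, 97.5 and 77.2 CPM at 36 h. The first 3 times overlapped, and at 42 h its libraries were still at 82.5, 75.5 and 83.5 CPM. On the second day MpHA13 had 53.2, 70.8 and 66.4 CPM at 48 h and 61.3, 57.8 and 95.2 CPM at 54 h. Replicate 3 of 54 h was again the high library. At 60 h there were 46.3, 73.4 and 41.7 CPM and at 66 h 37.3, 37.9 and 52.1 CPM, so that replicate 2 of 60 h alone reached the level of 48 h.

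**Figure D1:**
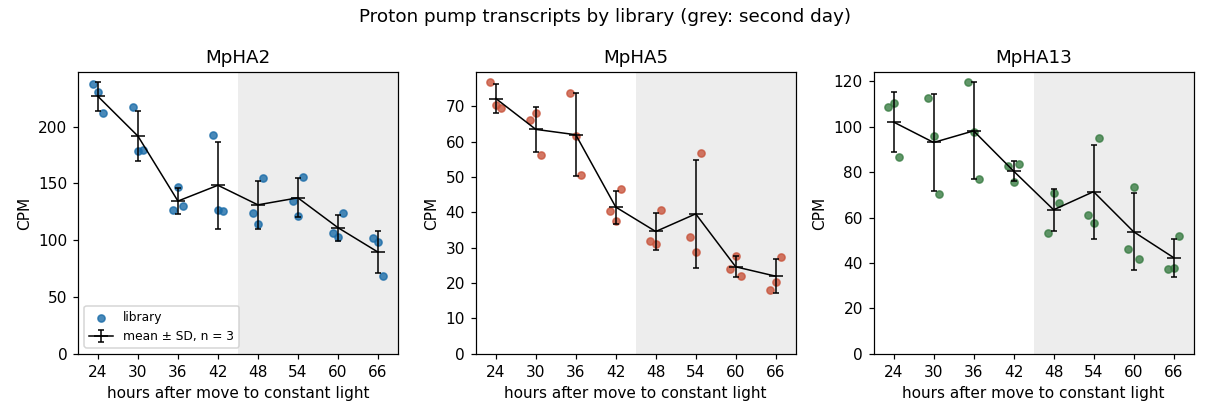
Level (CPM, linear axis from 0) of MpHA2, MpHA5 and MpHA13 in each of the 24 libraries against hours after the move to constant light; points are libraries, black marks, joined by a line, and bars are the mean and SD of 3 libraries, and the second day is shaded grey. MpHA2 drops between 24 and 36 h, MpHA5 a little from 24 to 30 h and more between 36 and 42 h, and MpHA13 only after 36 h. Replicate 3 of 54 h is high for MpHA5 (56.9 CPM) and MpHA13 (95.2 CPM).

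The days were compared as the mean of 48, 54, 60 and 66 h minus the mean of 24, 30, 36 and 42 h, so that each phase of a 24 h cycle counts equally on both sides. On the log2 scale MpHA5 fell by 1.00 ± 0.10 (SE), MpHA13 fell by 0.71 ± 0.11 and MpHA2 fell by 0.57 ± 0.08, which is 1.99, 1.64 and 1.48 fold. Of all tested genes, 0.506% fell more than MpHA5, 1.44% more than MpHA13 and 3.09% more than MpHA2, and the median gene changed by 0.01. All 3 genes passed the edgeR threshold (adjusted p under 0.05) for a lower level on the second day, which 16.3% of the tested genes did. The choice of genes used these levels, so nothing is read from this count.

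The later time was lower at each phase of the cycle in all 3 genes, but not all of these differences were far beyond their SE. For 48 against 24 h the log2 difference was −0.79 ± 0.16 (SE) in MpHA2, −1.06 ± 0.20 in MpHA5 and −0.68 ± 0.22 in MpHA13. For 54 against 30 h it was −0.48 ± 0.16, −0.68 ± 0.20 and −0.38 ± 0.22 in the same order. MpHA5 changed most at 60 against 36 h, by −1.33 ± 0.20, where MpHA2 changed by −0.28 ± 0.16 and MpHA13 by −0.86 ± 0.22. The last pair, 66 against 42 h, gave −0.73 ± 0.16, −0.92 ± 0.20 and −0.92 ± 0.22. The later libraries lay below the earlier ones without overlap for all 3 genes at 48 against 24 h, at 60 against 36 h and at 66 against 42 h, as for 17.6%, 13.7% and 7.69% of tested genes. At 54 against 30 h this held for MpHA2 alone, as for 15.8% of tested genes. In MpHA5 replicate 3 of 54 h, at 56.9 CPM, overlapped the lowest library of 30 h, at 56.1 CPM. In MpHA13 the libraries of 54 h, at 57.8 to 95.2 CPM, overlapped those of 30 h, at 70.4 to 113 CPM.

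Opposite phases of the cycle differed unequally in the 3 genes. MpHA2 changed by −0.75 ± 0.16 (log2, SE) from 24 to 36 h and by −0.24 ± 0.16 from 48 to 60 h. MpHA5 changed by −0.22 ± 0.20 from 24 to 36 h but by −0.61 ± 0.20 from 30 to 42 h. MpHA13 changed by −0.06 ± 0.22 from 24 to 36 h and by −0.21 ± 0.22 from 30 to 42 h, within the error. From 54 to 66 h the fall was −0.62 ± 0.16, −0.85 ± 0.20 and −0.75 ± 0.22 for MpHA2, MpHA5 and MpHA13. Whether these steps differ between the genes was not tested, since the genes were chosen with their profiles known.

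The 24 h rhythm fitted beside the decline had a similar size in the 3 genes, with wide errors. With a linear drift in the fit, the difference between fitted peak and trough was 0.30 ± 0.14 (log2, SE) for MpHA2, with a peak at 2.95 ± 1.5 h in hours after the move modulo 24 h. It was 0.29 ± 0.15 for MpHA5 with a peak at 8.03 ± 2.1 h, and 0.25 ± 0.16 for MpHA13 with a peak at 9.87 ± 2.7 h. The edgeR rhythm test called 0 of the 3 genes, as did DESeq2 and limma-voom, and at an unadjusted p under 0.05 each tool also gave 0. Among all tested genes 18.7% were called by edgeR. The genes were picked with their profiles known, and these counts support nothing about them. MpHA2 gained a call without replicate 1 of 42 h, where its rhythm was 0.42, and in a fit without a drift term (0.72). A day term in place of the linear term called MpHA2 (0.70) and MpHA5 (0.81). In these fits a decline that the other terms do not take up can enter the cosine and sine terms, which was not tested. With linear and day terms together the rhythm was 0.44 for MpHA2 and 0.36 for MpHA5, and 0 of the 3 genes were called. For some difference between the 8 times, all 3 genes passed the edgeR threshold, as 36.8% of tested genes did, and here too the choice of genes used these levels.

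Among libraries of the same time, MpHA5 and MpHA13 varied together, and MpHA2 did not follow them. Over the 24 libraries, log2 CPM of MpHA5 and MpHA13 had a Pearson correlation of 0.934 (Spearman 0.923, and 0.909 without the 2 libraries farthest from the median of MpHA5). These values are a description, and the libraries share the decline over time. After the mean of each time was taken away, the correlation of MpHA5 and MpHA13 was still 0.806 (Spearman 0.810, and 0.747 without the 2 farthest libraries). Replicate 3 of 54 h was 0.59 above its time's mean in MpHA5 and 0.45 above in MpHA13, and replicate 3 of 36 h was −0.28 and −0.32 from it. MpHA2 correlated at 0.776 with MpHA5 and at 0.692 with MpHA13 over all libraries, but at 0.04 and −0.003 after the time means were removed (0.26 and 0.12 without the 2 farthest libraries). Differences between libraries of the same time were therefore shared by MpHA5 and MpHA13 and not by MpHA2 in these samples. The sharing was not particular to this pair. Over the tested pump genes these correlations of MpHA5 ran from −0.509 (MpHA3) to 0.806 (MpHA13), with 0.717 for MpHA12. How common such values are among all tested genes was not tested.

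**Figure D2:**
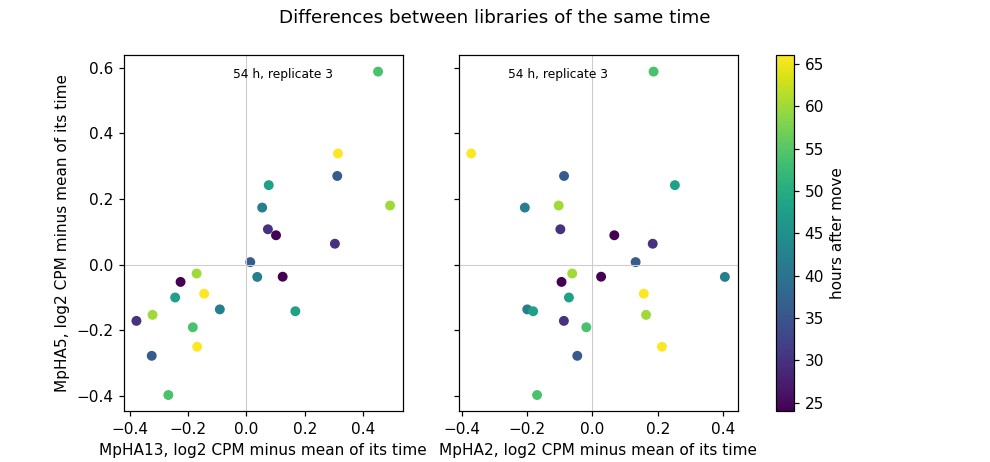
Each point is 1 of 24 libraries, coloured by hours after the move, and shows log2 CPM minus the mean of the 3 libraries of its time for MpHA5 (vertical) against MpHA13 (left) and MpHA2 (right). MpHA5 and MpHA13 deviate together (correlation 0.806), with replicate 3 of 54 h at the top, while MpHA5 and MpHA2 do not (0.04).

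The identifiers place MpHA5 and MpHA13 in 2 runs of neighbouring pump genes. MpHA13 is followed by MpHA11 (Mp3g07700) and MpHA12 (Mp3g07710), and MpHA5 by MpHA14 (Mp3g12390), MpHA18 (Mp3g12400) and MpHA4 (Mp3g12410), with MpHA15 (Mp3g12440) a little further on. MpHA2 has no MpHA gene next to it. The deviations of MpHA13 from its time means correlated at 0.838 with those of its neighbour MpHA11 and at 0.630 with MpHA12. Those of MpHA5 correlated at 0.451 with its neighbour MpHA14, which is below the 0.757 with MpHA4, the 0.770 with MpHA11 of the other run and the 0.806 with MpHA13. Copies that are nearly identical can share reads, and how the authors' counting treated such reads is not given in the sources used here, so values of single genes within a run are uncertain and the part of shared reads in these correlations was not tested. MpHA15 has the same count in all 24 libraries as the next listed identifier, Mp3g12450, which carries no symbol.

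The rest of the pump family mostly declined as well. Of the 14 other tested MpHA genes, 10 were lower on the second day and 0 higher by edgeR (adjusted p under 0.05), where 16.3% of all tested genes were lower and 18.3% higher. Among these 10, MpHA11, MpHA12, MpHA14, MpHA18, MpHA4 and MpHA15 lie in the runs of MpHA13 and MpHA5. Reads may be shared there, so these calls may not be separate from each other or from the selected genes. The called genes outside the runs were MpHA1, MpHA8, MpHA16 and MpHA19. DESeq2 also called 10 lower and 0 higher, and limma-voom 9 and 0. At an unadjusted p under 0.05 edgeR gave 1 higher gene, DESeq2 0 and limma-voom 0. The median change of the 14 genes was −0.31 on the log2 scale, against 0.01 over all tested genes. The 3 genes above are themselves among the larger falls of this family, and the list was made with earlier results of these data known. Leaving out single libraries gave 7 to 10 lower genes. The calls of MpHA1, MpHA12 and MpHA4 were the ones that were lost, and all 3 went on leaving out any of 4 single libraries, namely replicate 2 of 30 h, replicate 3 of 42 h, replicate 1 of 48 h and replicate 1 of 54 h.

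Within the run that begins with MpHA13, the pump gene MpHA11 fell by 0.41 ± 0.10 (log2, SE, adjusted p = 0.0028 by edgeR) and its time means (n = 3, with SD) were 151 ± 17 CPM at first and 85.1 ± 21 CPM at last. MpHA12 fell by 0.46 ± 0.16 (edgeR adjusted p = 0.0299), but that call was lost on leaving out any of 7 single libraries, with an adjusted p of 0.0669 without replicate 3 of 42 h. In the run of MpHA5, MpHA18 fell by 0.96 ± 0.20 (edgeR adjusted p = 9.0e-04) at a mean of 8.67 CPM, about as far as MpHA5 itself. MpHA15 fell by 0.55 ± 0.08 (edgeR adjusted p = 3.6e-05) and MpHA14 fell by 0.34 ± 0.06 (edgeR adjusted p = 7.8e-05). MpHA4 differed by −0.26 ± 0.09 (edgeR adjusted p = 0.0347), and lost its call on leaving out any of 10 single libraries, with an adjusted p of 0.0783 without replicate 3 of 42 h. Every tested gene of both runs was thus lower on the second day, least in MpHA4 and most in MpHA5.

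Elsewhere in the genome the family was mixed. MpHA19 (Mp2g05000) fell 2.14 fold (SE 0.25 on the log2 scale, edgeR adjusted p = 0.0018), but at a mean of 1.47 CPM. MpHA16 (Mp3g15070) fell by 0.64 ± 0.18 (edgeR adjusted p = 0.0085) at 2.81 CPM. MpHA8 (Mp4g06820) fell by 0.25 ± 0.07 (edgeR adjusted p = 0.0081). Its time means (n = 3, with SD) were 139 ± 2.4 CPM at 24 h, already 88.1 ± 5.8 CPM at 36 h and still 86.0 ± 4.8 CPM at 66 h. MpHA1 (Mp1g13700) changed by −0.27 ± 0.10 (edgeR adjusted p = 0.0435), a call that was lost on leaving out any of 16 single libraries, with an adjusted p of 0.0820 without replicate 1 of 54 h. It was also lost with limma-voom (adjusted p = 0.0632).

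The genes not called between the days were MpHA3, MpHA6, MpHA9 and MpHA17. MpHA3 (Mp4g02970) had a mean of 900.3 CPM and a day difference of 0.10 ± 0.06 (log2, SE, edgeR adjusted p = 0.199). MpHA6 (Mp4g12350) differed by 0.19 ± 0.19 (edgeR adjusted p = 0.476) and MpHA17 (Mp3g19090) by −0.06 ± 0.18 (edgeR adjusted p = 0.844). MpHA9 (Mp2g09680) was at 0.540 CPM on average and differed by 1.83 ± 1.09 (edgeR adjusted p = 0.109), too variable to give a direction. MpHA7 (Mp3g25030), with 0 to 8 counts per library, was not tested.

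**Figure D3:**
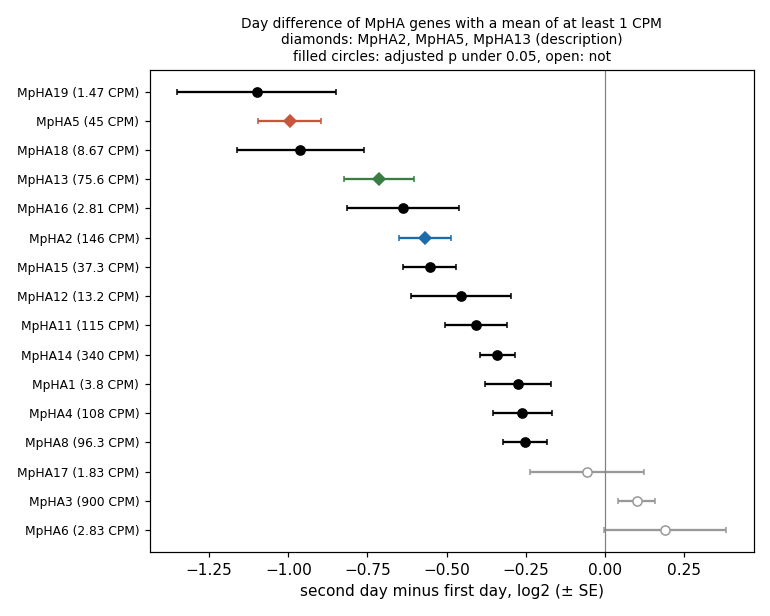
Difference between the days (mean of the second day minus mean of the first, log2, bars are SE) of the 16 MpHA genes with a mean of at least 1 CPM, whose mean CPM stands in brackets; diamonds are MpHA2, MpHA5 and MpHA13, filled circles passed an edgeR adjusted p of 0.05 and open circles did not. MpHA5 lies at −1.00, and MpHA17, MpHA3 and MpHA6 lie near 0.

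A rhythm was called for 2 of the 14 other pump genes, MpHA3 and MpHA14, near the share of 18.7% among all tested genes. In MpHA3 the fitted peak, at 2.66 ± 0.64 h, was 1.55 fold above the trough (log2 0.63 ± 0.12, SE, edgeR adjusted p = 0.0012). Its time means (n = 3, with SD) were 1101 ± 96 CPM at 24 h and 663 ± 14 CPM at 36 h. On the second day they were 1044 ± 39 CPM at 48 h, 920 ± 75 CPM at 60 h and 729 ± 129 CPM at 66 h. The log2 change of MpHA3 was −0.73 ± 0.12 (SE) from 24 to 36 h and −0.18 ± 0.12 from 48 to 60 h. In MpHA14 the ratio was also 1.55 fold and the fitted peak lay at 3.55 ± 0.54 h (edgeR adjusted p = 1.2e-04). Its time means were 475 ± 18 CPM, 310 ± 13 CPM, 375 ± 38 CPM, 266 ± 7.7 CPM and 199 ± 9.8 CPM at the same times, in order. Neither call was kept when the fit held a linear and a day term at once (adjusted p = 0.710 for MpHA3 and 0.331 for MpHA14), and that of MpHA3 also with a period of 22 h (adjusted p = 0.0990).

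MpHA2 followed MpHA14 more closely than its fellow members over the libraries. The correlation of log2 CPM between MpHA2 and MpHA14 was 0.858 (Spearman 0.854, and 0.822 without the 2 farthest libraries), and 0.478 after the time means were removed. After that removal MpHA14 was not the closest pump gene: MpHA18 stood higher with MpHA2, at 0.623, and MpHA16 was near, at 0.441. MpHA2, MpHA14, MpHA3 and MpHA8 each lost between 0.62 and 0.75 on the log2 scale from 24 to 36 h. MpHA5, MpHA13, MpHA11 and MpHA15 changed by −0.22, −0.06, −0.24 and 0.06 over the same hours. The other tested pump genes ran from −1.32 (MpHA19) to 1.65 (MpHA9), both at low counts, with 0.17 in MpHA12 and 0.37 in MpHA4. These groups were not set by a rule beforehand, so the contrast between them is a description only. From 36 to 60 h the order was otherwise, with −0.28 in MpHA2 and 0.47 in MpHA3 against −1.33 in MpHA5 and −0.86 in MpHA13.

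**Figure D4:**
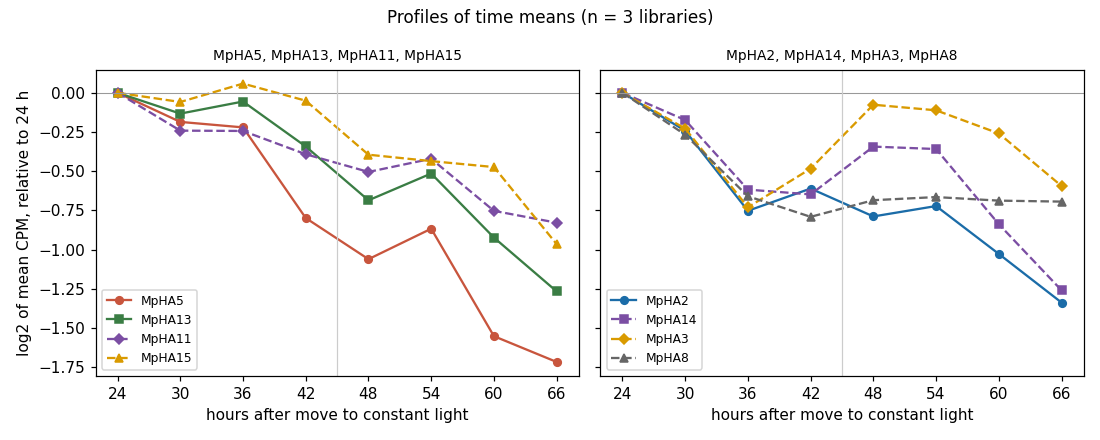
Log2 of the mean CPM of 3 libraries at each time, relative to 24 h, for MpHA5, MpHA13, MpHA11 and MpHA15 (left) and for MpHA2, MpHA14, MpHA3 and MpHA8 (right); solid lines are MpHA2, MpHA5 and MpHA13, and the vertical line separates the days. The groups were not set by a rule beforehand. As drawn, the left group holds its level to 36 h more than the right, and MpHA3 is back near its first level at 48 h.

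Outside the family, the genes with the most similar profiles declined too, as this choice implies. For MpHA2 the highest correlations of log2 CPM over the 24 libraries were with the dirigent gene MpDIR55 (Mp8g16550, 0.935) and with 4 genes without a symbol, led by Mp5g11490 (0.925). For MpHA5 they were with Mp3g18450 (0.938), Mp6g02860 (0.936), the class III peroxidase gene MpPOD63 (Mp5g02840, 0.9302), MpMTPSL-like (Mp5g18940, 0.926) and Mp2g15700 (0.925). For MpHA13 they were with the phospholipase D gene MpPLD7 (Mp1g19150, 0.939), Mp6g02860 (0.933) and 3 more genes without a symbol, at 0.900 to 0.917. Mp6g02860 was thus named for both MpHA5 and MpHA13, and fell by 0.66 ± 0.08 between the days at a mean of 183 CPM. The day differences of the named genes ran from −0.36 (MpDIR55) to −1.17 (MpPOD63).

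Genes outside the family that are tied to proton transport were also counted. All 3 tested genes matched by symbol as proton pumps of internal membranes were lower on the second day by edgeR, as 16.3% of all tested genes were. They were MpVHA-a (Mp3g15140), a subunit of the V-type ATPase that acidifies inner compartments, at −0.24 ± 0.05 (log2, SE, adjusted p = 2.9e-04), and the proton-pumping pyrophosphatase genes MpAVP3 (Mp4g18110, −0.25 ± 0.06, adjusted p = 0.0028) and MpAVP2 (Mp2g18280, −0.20 ± 0.05, adjusted p = 0.0037). None of these 3 was called rhythmic, where 18.7% of all tested genes were, and their largest fitted rhythm was 0.15. The phosphatase gene MpPP2C_D (Mp7g10100), whose relatives in Arabidopsis switch plasma membrane pumps off, differed by 0.03 ± 0.04 between the days (edgeR adjusted p = 0.578). SAUR proteins inhibit those phosphatases in Arabidopsis. The counts of this and the later lists stand beside shares of 16.3% lower, 18.3% higher and 18.7% rhythmic among all tested genes. Of 13 tested SAUR genes 1 was lower and 3 higher on the second day, and 3 were rhythmic, among them MpSAUR3 (Mp6g08420, 1.78 fold, peak at 4.28 h, edgeR adjusted p = 0.0033) and MpSAUR2 (Mp6g10840, 1.57 fold, peak at 22.9 h, edgeR adjusted p = 0.0045). The third was MpSAUR14 (Mp1g27920, 1.87 fold at a mean of 2.04 CPM, edgeR adjusted p = 0.0384).

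The phototropin gene MpPHOT (Mp5g03810), a blue-light receptor upstream of the pumps in flowering plants, had a day difference of 0.04 ± 0.05 (log2, SE, edgeR adjusted p = 0.542) and a rhythm of 1.42 fold that peaked at 3.97 h (edgeR adjusted p = 2.8e-04). The auxin receptor gene MpTIR1 (Mp6g02750) rose by 0.21 ± 0.05 (edgeR adjusted p = 0.0021). Of the potassium genes, the channel gene MpAKT1 (Mp5g22750) fell by 0.18 ± 0.06 (edgeR adjusted p = 0.0222) and MpHKT (Mp7g13910) rose by 0.70 ± 0.27 (edgeR adjusted p = 0.0487) at a mean of 1.66 CPM. MpHKT was also rhythmic (3.60 fold, edgeR adjusted p = 0.0136). Carriers for nitrate, ammonium, phosphate and sucrose, many of which use the proton gradient, had 7 genes lower and 7 higher of 36 tested, near the shares of all tested genes, with a median of −0.07. In that list 9 genes were rhythmic (18.7% over all tested genes), with the largest swings in the phosphate carrier gene MpPTB8 (Mp4g19700, 2.51 fold, peak at 14.0 h, edgeR adjusted p = 4.8e-04) and the NPF genes MpNPF9 (Mp3g09240, 2.11 fold, peak at 16.9 h, edgeR adjusted p = 0.0030), MpNPF22 (Mp5g04930, 1.88 fold) and MpNPF13 (Mp3g13080, 1.73 fold). Expansins loosen acidified walls. Of 30 tested expansin genes 7 were lower (16.3% over all tested genes) and 2 higher (18.3%) on the second day, with a median of −0.13, and 3 were rhythmic (18.7%), namely MpExpansin16 (Mp3g03970, 1.74 fold), MpExpansin28 (Mp3g12300, 1.72 fold) and MpExpansin32 (Mp4g06560, 1.70 fold).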

How the data were processed

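RNA of 24 libraries was sequenced after poly(A) selection with a stranded kit, per the labels' protocols. The deposited table holds the authors' whole-number counts per gene, not normalized. For aligner, build, counter and its strandedness, the methods were not given in the sources used here. The filter filterByExpr (groups: times; minimum count 10) kept 14414 of 20574 genes. Counts were scaled by TMM (factors 0.932 to 1.10) and tested across all genes with glmQLFit and glmQLFTest of edgeR 4.0.16 in R 4.3.3, with Benjamini-Hochberg adjustment at 0.05. The rhythm model had cosine and sine of 24 h and a linear term. All other contrasts came from a model of time means. DESeq2 1.42.0 and limma 3.58.1 (voom) were alternatives. The fits were checked on simulated data. Correlations used log2 CPM with a prior count of 2.

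The 3 genes and all lists were chosen with earlier results of these data known. Named were the 3 genes, all other MpHA genes, the 5 genes outside that list with a mean of at least 5 CPM that correlated best with each of the 3, and up to 4 rhythmic genes of each other list. Lists of up to 4 tested genes are given whole. Lists were matched by symbol (3091 identifiers carried one, of 17641 matched). After the symbols were seen, a list of 14-3-3 genes was dropped, since its match may be a transcription factor, and the patterns for expansins and potassium genes were corrected. No genome coordinates, gene lengths or sequences were used, so levels are not compared between genes.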

Additional observations from a re-analysis of the deposited data

Results flagged for a closer look

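In 2 genes named in the lists above the rhythm differed between the days by a test of that difference (edgeR, interaction of day with both rhythm terms, adjusted over all tested genes). MpExpansin28 (adjusted p = 0.0076) was highest at 42 h on the first day, at 23.7 ± 4.1 CPM (SD, n = 3), and lowest at 30 h, at 12.4 ± 0.67. On the second day it was highest at 48 h, at 24.1 ± 3.7 CPM, and lowest at 60 h, at 11.6 ± 3.2. MpAKT1 (adjusted p = 0.0380) was lowest at 30 h on the first day, at 20.1 ± 1.1 CPM, and lowest at 60 h on the second, at 16.4 ± 1.5. The edgeR rhythm test over both days did not call MpAKT1 (adjusted p = 0.172).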

How the results depend on the processing

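The day differences of MpHA2, MpHA5 and MpHA13 kept their sign under all 30 alternatives run. They moved by less than the SD of single libraries within times. That is a wide yardstick, since leaving out 1 library changes a mean over 4 times only a little. The day difference of MpHA13, −0.71 ± 0.11 (log2, SE), became −0.83 without the 3 libraries rich in MpVg01240. Leaving out single libraries gave −0.60 to −0.51 for MpHA2, −1.09 to −0.95 for MpHA5 and −0.79 to −0.67 for MpHA13. It gave rhythms of 0.24 to 0.42, 0.20 to 0.36 and 0.18 to 0.31. Without a drift term the rhythm was 0.72 for MpHA2, 0.76 for MpHA5 and 0.44 for MpHA13, and with a day term in its place 0.70, 0.81 and 0.50. These fits moved the peak of MpHA5 to 4.40 and 4.32 h and that of MpHA13 to 4.90 and 4.89 h. Without replicate 3 of 54 h MpHA5 peaked at 11.9 h and MpHA13 at 12.9 h. The number of rhythmic genes was 4269 with the day term, 1009 with linear and day terms together and 1712 at 22 h. Of the other MpHA genes 5, 0 and 1 were then called. Beyond the construction of these fits, the cause was not tested. No general pairing of libraries by replicate number was seen: 30 of 84 same-number pairs of deviations correlated above 0.1, and 9 of 24 libraries were closest to their own number. Same-number correlations ran from −0.50 to 0.45, with a median of 0.0019 against 0.0022 for different numbers. Whether libraries of some times were paired was not tested. With the replicate number as a block, 2649 genes were rhythmic and 2317 lower on the second day, and among the MpHA genes only MpHA1 lost its call (adjusted p = 0.0548). Low counts limit MpHA7, MpHA9 and MpHA19. The count of other MpHA genes lower on the second day was added after the data were seen.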
